A study of Mus musculus with 225 samples.

Results

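Among single cells of the mouse forelimb at embryonic day (E) 12.5, cycling cells were selected on the reads of 4 genes, *Mki67*, *Top2a*, *Ccnb1* and *Cdk1*. A cell was called cycling when at least 3 of the 4 had 5 or more reads, and 41 of the 199 cells retained by the authors met this rule. They were 18 autopod cells, beside 58 other autopod cells, and 23 zeugopod cells, beside 100 others. The autopod is the distal part of the limb, from which the digits form, and the zeugopod is the part from which the forearm forms. All cells came from embryos heterozygous for *Hoxd11::GFP*, on a mixed C57Bl6CBAF1 background. In these embryos tau-GFP was inserted into the coding sequence of *Hoxd11*, which the paper describes as inactivating the gene. Each cell therefore carried 1 inactivated *Hoxd11* allele. Forelimbs of littermates were pooled, the cells were sorted for high GFP, and single cells were captured on a Fluidigm C1 chip, where the mRNA of each cell was reverse transcribed and amplified in a chamber of its own. The GFP gate favours cells that had transcribed *Hoxd11*, so the cells are a selected portion of each tissue. The libraries were sequenced in 3 runs: autopod cells in NXT0072 (59 retained cells) and NXT0143 (17), and zeugopod cells in NXT0142 (58) and NXT0143 (65). The labels name no embryo for a cell, and each tissue is therefore 1 pooled sample in which cells are not replicates. No p-value is given anywhere, SDs are over cells, and intervals of shares are exact (Clopper-Pearson) 95% intervals that cover counting error only.

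A dividing cell copies its DNA in S phase and, after a gap (G2), separates the copies in mitosis (M). Transcripts of mitotic genes accumulate in G2 and M and are lost after division, whereas transcripts of DNA replication genes start to accumulate before S phase. *Mki67* encodes the Ki-67 protein of dividing cells, which coats mitotic chromosomes, *Top2a* a topoisomerase that untangles DNA, *Cdk1* the kinase that drives entry into mitosis, and *Ccnb1* cyclin B1, its partner. In the limb bud, mesenchymal progenitors divide while *Hox* genes and other patterning factors set their position, and cells that enter the cartilage path switch on *Sox9* and then matrix genes such as *Col2a1*.

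Many genes of G2 and M share 2 promoter elements: the cell cycle homology region, read here as TTTGAA or TTTAAA and known as a site of the DREAM and MuvB complexes, and the CCAAT box bound by NF-Y. Both were searched on either strand in RefSeq promoters of GRCm38.p6, from 250 bases before to 50 after each start. The stretches before the start are shown for 3 of the 4 genes of the rule. They are also shown for *Ccnb2* (cyclin B2) and *Plk1* (a mitotic kinase), which were not in the rule. All serve as examples of promoters that hold these elements. Letters run 5′ to 3′ on the strand of the gene, capitals mark these elements on either strand, and the stretches are *Mki67* chr7:135716380-135716529 (minus strand), *Top2a* chr11:99024190-99024339 (minus), *Cdk1* chr10:69352939-69353062 (minus), *Ccnb2* chr9:70421555-70421704 (minus) and *Plk1* chr7:122159285-122159434 (plus). The *Cdk1* stretch stops 27 bases before its RefSeq start, where the gene begins in GENCODE. Those of *Ccnb1* and of *Ube2c* (an enzyme of mitotic exit), whose starts differ between the 2 annotations, are not shown. The starts of *Mki67*, *Ccnb2* and *Plk1* also differ, but the stretches shown for them end before the gene in both.
Mki67: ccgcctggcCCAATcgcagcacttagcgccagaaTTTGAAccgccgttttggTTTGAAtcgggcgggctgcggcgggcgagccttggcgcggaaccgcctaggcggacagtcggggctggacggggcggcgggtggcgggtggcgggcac
Top2a: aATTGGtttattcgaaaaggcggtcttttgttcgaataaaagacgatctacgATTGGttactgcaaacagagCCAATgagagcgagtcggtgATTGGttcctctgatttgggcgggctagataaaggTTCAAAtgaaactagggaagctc
Cdk1: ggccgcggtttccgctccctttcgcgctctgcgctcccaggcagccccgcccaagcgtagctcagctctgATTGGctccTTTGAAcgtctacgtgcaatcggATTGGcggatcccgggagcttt
Ccnb2: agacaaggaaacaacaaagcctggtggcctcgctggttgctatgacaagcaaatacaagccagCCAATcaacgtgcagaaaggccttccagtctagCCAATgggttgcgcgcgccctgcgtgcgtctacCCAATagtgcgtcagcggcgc
Plk1: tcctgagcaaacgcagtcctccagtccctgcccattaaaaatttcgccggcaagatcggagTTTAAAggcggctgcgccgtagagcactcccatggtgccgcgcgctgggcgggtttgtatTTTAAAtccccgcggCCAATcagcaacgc
*Mki67* had a pair of TTTGAA elements, and *Top2a* had 4 CCAAT boxes and a TTTGAA in reverse in the 150 bases shown. *Plk1* had a pair of TTTAAA elements and 1 CCAAT, and *Ccnb2* had 3 CCAAT boxes, with its TTTGAA elements lying outside the stretch. Over all 10486 promoters of the 8139 genes of the normalized table that matched, 11.9% held TTTGAA, 38.1% CCAAT, and 7.71% held either form of the first element together with CCAAT. In the 50 promoters of the G2/M list together with the 4 rule genes (48 of 61 genes matched), the same shares were 72%, 76% and 68%. The 178 genes higher in cycling cells of both tissues, given below, share members with that list. In their 161 promoters (139 genes matched) the shares were 43.5%, 55.3% and 34.2%. In the 55 promoters of the S phase list they were 14.5%, 60% and 18.2%, while an E2F site (TTTGGCGC or TTTCCCGC), a motif of replication genes, was in 29.1% of them and in 3.01% of all promoters of the table. A match to these letters describes the window and does not show that a factor binds there.

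The reads that chose the cells are given first, as a description of the rule and not as a finding. Levels are in CPM (counts scaled to 1000000 gene reads in each cell), so they can be compared between cells and not between genes of different length. *Top2a* ranged from 15.9 CPM through a median of 978 to 5339 in the 18 cycling autopod cells, and from 0 through 0.862 to 2614 in the other 58. In the zeugopod it ranged from 111.1 through 2101 to 5149 in the 23 cycling cells, and from 0 through 0 to 3253 in the other 100. *Top2a* had 5 or more reads in all 41 cycling cells, but also in 27 of 58 other autopod cells and 21 of 100 other zeugopod cells. *Cdk1* had a median of 401 CPM in cycling autopod cells (0.951 to 3266) and 499.9 in cycling zeugopod cells (0 to 1697), with a median of 0 in other cells of both tissues. *Mki67* had a median of 122.1 CPM (0 to 5879.5) in cycling autopod cells and 275 (1.29 to 3409.5) in cycling zeugopod cells, again with medians of 0 in other cells. *Ccnb1* was read least: its median was 10.7 CPM (0 to 297) in cycling autopod cells and 2.35 (0 to 40.4) in cycling zeugopod cells, and 1 of the 158 other cells reached 5 reads. Only uniquely mapped reads were counted, so genes with near-identical copies elsewhere in the genome can be undercounted, and whether this holds for *Ccnb1* was not tested.

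**Figure D1:**
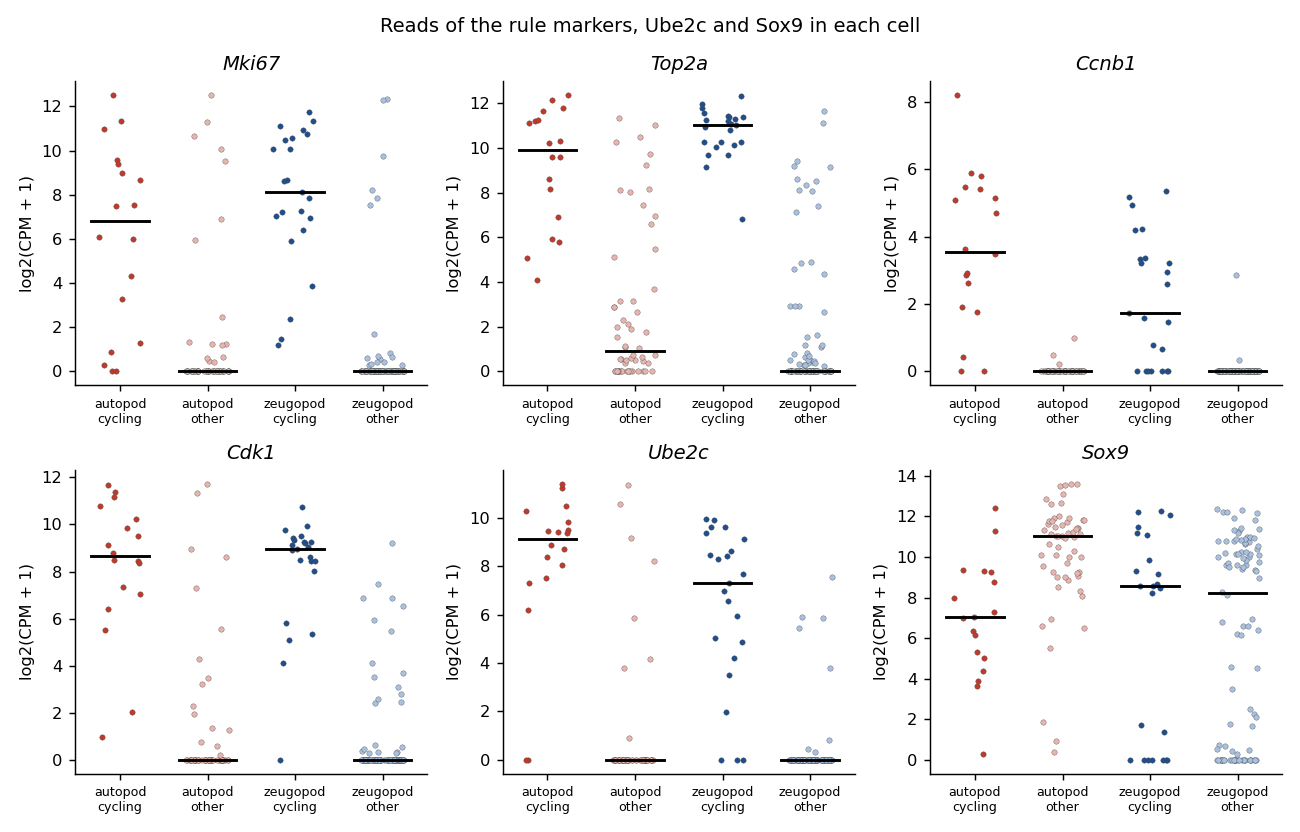
Each point is a cell, its height is log2(CPM + 1) of the gene named above the panel, and the black bar is the median of the group. *Mki67*, *Top2a*, *Ccnb1* and *Cdk1* chose the cycling cells; *Ube2c* and *Sox9* were not part of the rule, and the median of *Ube2c* was 561 CPM in cycling autopod cells and 0 in other autopod cells.

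The numbers of cells with 0, 1, 2, 3 and 4 of the markers at 5 reads were 25, 20, 13, 9 and 9 in the autopod and 67, 23, 10, 10 and 13 in the zeugopod. Just inside the rule, the 9 autopod cells with 3 markers had a median of 207 reads of *Top2a*, 854 of *Cdk1*, 59 of *Mki67* and 57 of *Ccnb1*. Just outside it, the 13 autopod cells with 2 markers had medians of 374, 7, 6 and 0. In the zeugopod the 10 cells with 3 markers had medians of 6757 reads of *Top2a*, 2351.5 of *Mki67*, 1334 of *Cdk1* and 0 of *Ccnb1*, and the 10 cells with 2 markers had 1116, 40, 1.5 and 0. The step between 2 and 3 markers thus rested mainly on *Ccnb1* and *Cdk1* in the autopod and on *Cdk1* and *Mki67* in the zeugopod.

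The share of cycling cells was 23.7% in the autopod (interval 14.7 to 34.8) and 18.7% in the zeugopod (12.2 to 26.7). By run it was 27.1% in NXT0072 (16 of 59) and 11.8% in NXT0143 (2 of 17) for the autopod, and 24.1% in NXT0142 (14 of 58) and 13.8% in NXT0143 (9 of 65) for the zeugopod. In both tissues the share was lower in NXT0143, with intervals that overlapped. None of the 26 cells that were not retained met the rule, which allows a share of up to 11.5% by 3 counts of the total and 13.2% by the exact interval. The tissue labels were matched by their markers: *Hoxd13* had 5 or more reads in 65 of 76 autopod cells and 1 zeugopod cell, and *Shox2* in none of the autopod cells and in 73 zeugopod cells.

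Cycling cells had more detected genes and more reads relative to the spike-ins. The median number of genes with a read was 4170.5 in cycling and 3402 in other autopod cells, and 5053 and 3900.5 in the zeugopod. The ratio stayed at 1.20 and 1.29 after every cell was thinned to 500000 reads. Total reads had medians of 3042983 and 2800338 in the autopod, a ratio of 1.09, and 3889850 and 2921552 in the zeugopod, a ratio of 1.33. Within runs their ratio was between 0.974 and 1.26. Reads divided by the spike-in size factor, a measure of RNA per cell that is comparable only within a run, were higher in cycling cells by a ratio of medians of 1.62 in NXT0072, 1.76 in NXT0142 and 1.61 in the zeugopod cells of NXT0143. Differences were therefore computed on 2 scales, the authors' spike-in-normalized value, which keeps the amount of RNA per cell, and CPM, which scales each cell to the same total. A shift of most genes remained on the CPM scale, as given below.

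**Figure D2:**
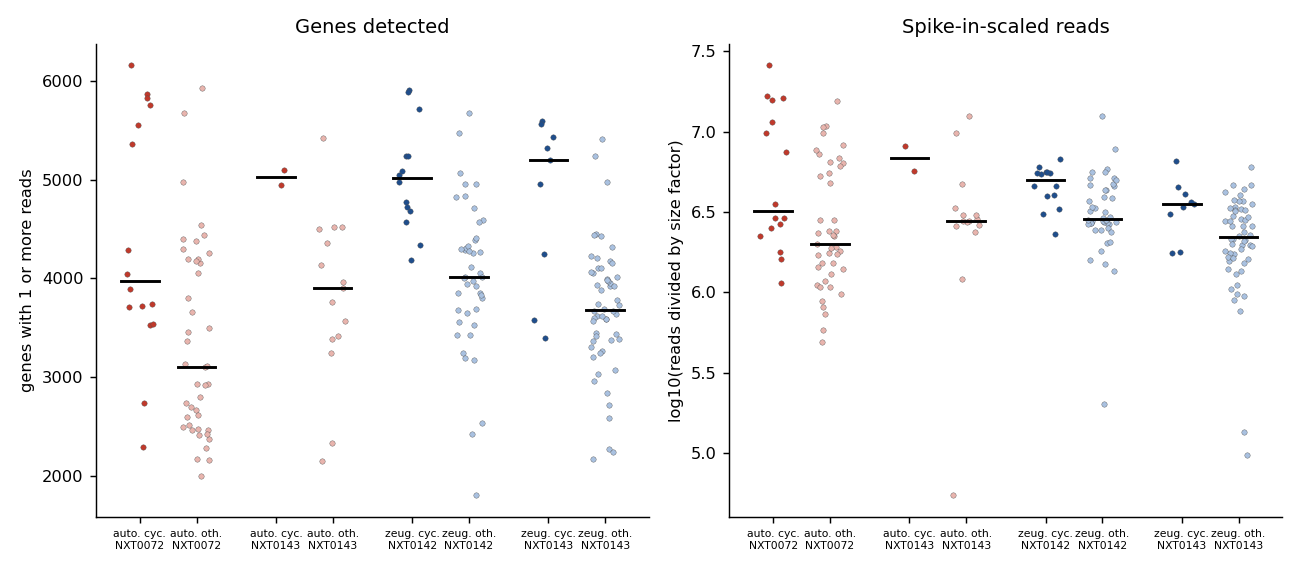
Each point is a cell, by tissue and run, with the median as a black bar: the left panel gives the number of genes with at least 1 read and the right panel the log10 of reads divided by the spike-in size factor. In all 4 pairs the median of cycling cells was above that of other cells, with ratios of genes detected between 1.25 and 1.41, although the autopod cells of NXT0143 hold only 2 cycling cells.

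A gene was said to pass the fold minimum when the mean log2(value + 1) of cycling cells differed from that of other cells by 2 or more in the same direction on both scales. A difference given as 1 value for a tissue is on the normalized scale unless CPM is named, and where 1 tissue has a pair of values the first is on the normalized scale and the second in CPM. Of 10948 genes, 553 were higher by this rule in cycling autopod cells (5.05%) and 15 were lower (0.137%). In the zeugopod 487 were higher (4.45%) and 0 were lower (0%). Both tissues shared 178 higher genes (1.63%) and no lower gene (0%), and the 178 were 32.2% of the autopod genes and 36.6% of the zeugopod genes. Of the 178, 61 belonged to the cycle lists described below. The differences of all genes on the CPM scale had a Pearson r of 0.43 between the tissues, over 10948 genes that are not independent. *Plk2*, a polo-like kinase outside the lists, was the one gene that passed in opposite directions, at −2.49 in the autopod and 2.45 in the zeugopod on the normalized scale. Its zeugopod call depended on the setting, as given near the end.

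The imbalance between higher and lower genes went with a shift of most genes. Among genes with 5 or more reads in at least 25% of cells, the median difference was 1.15 in the autopod and 0.85 in the zeugopod on the normalized scale, and 0.65 and 0.61 in CPM. Relative to these medians, 183 genes were higher and 120 lower in the autopod and 188 and 21 in the zeugopod. When each cycling cell was set against 1 other cell of its tissue and run with the nearest number of detected genes, 420 genes were higher and 75 lower in the autopod and 284 and 72 in the zeugopod. The matched other cells had a median of 4176.5 genes in the autopod, close to the cycling cells, and 4594 in the zeugopod, still below them.

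**Figure D3:**
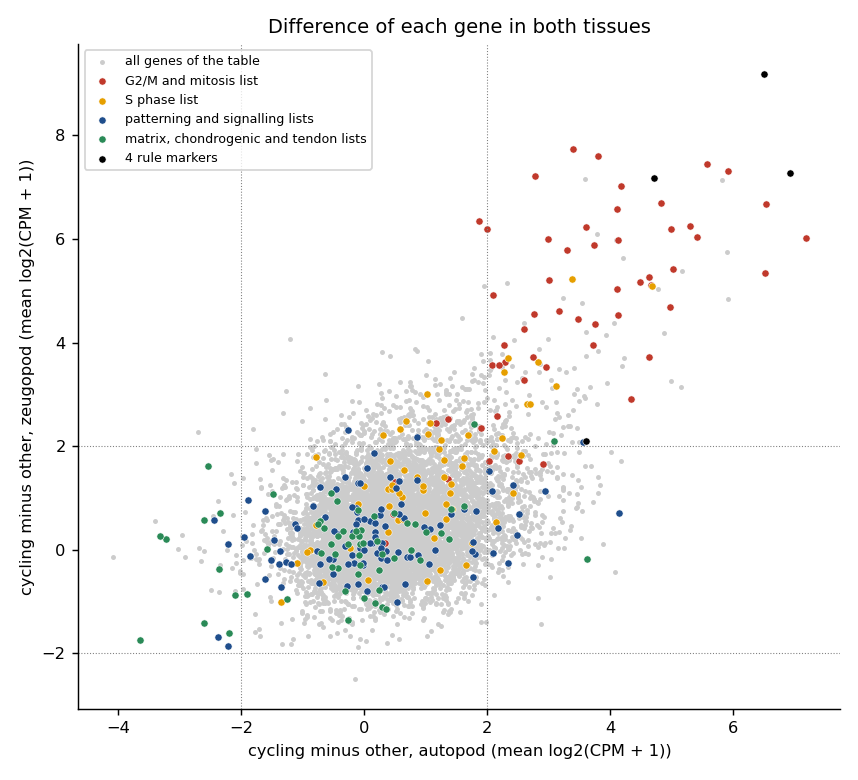
Each point is a gene, placed by its difference in mean log2(CPM + 1) between cycling and other cells of the autopod (horizontal) and the zeugopod (vertical), with dotted lines at −2 and 2. The G2/M list lies in the upper right with the rule markers, whereas most patterning and matrix genes lie around the broad cloud of all genes.

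The clearest group was that of mitosis, which follows in part from a rule that itself reads transcripts of dividing cells. Of 57 genes of the G2/M list, none of them in the rule, 48 passed as higher in the autopod, 49 in the zeugopod and 44 in both, beside 5.05%, 4.45% and 1.63% of all genes, none passed as lower, and all 57 had a positive difference on both scales in both tissues. The median difference of the list was 3.61 in the autopod and 4.80 in the zeugopod on the normalized scale, beside medians of 0.51 and 0.38 over all 10948 genes. *Ube2c*, the ubiquitin-conjugating enzyme that serves the anaphase-promoting complex, ranged from 0 through 561 to 2712 CPM in cycling autopod cells and from 0 through 0 to 2609.7 in other cells, a difference of 7.93 on the normalized scale and 7.17 in CPM. In the zeugopod its median was 158 CPM (0 to 980.3) in cycling cells against 0 (0 to 185) in other cells, a difference of 6.51 and 6.01. The ranges overlapped, but 16 of 18 and 20 of 23 cycling cells had 5 or more *Ube2c* reads, against 7 of 58 and 5 of 100 other cells.

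Genes of the spindle, the kinetochore and chromosome condensation were among those with the largest differences. *Nusap1*, a spindle protein, had 5 or more reads in 17 of 18 cycling and 6 of 58 other autopod cells and differed by 6.88. *Bub1*, a kinase of the spindle checkpoint, had a median of 522 CPM in cycling zeugopod cells and 0 in other cells and differed by 7.09. *Cdca8*, a part of the chromosomal passenger complex, differed by 5.60 in the autopod and 7.07 in the zeugopod, and *Tacc3*, a protein of spindle microtubules, by 4.67 and 7.03. The condensin subunit *Smc4* ranged from 9.99 through 576 to 2733 CPM in cycling autopod cells and from 0 through 0.44 to 2892 in other cells. In the zeugopod *Smc4* ranged from 19.7 through 639 to 2797 CPM in cycling cells and from 0 through 0 to 1992 in other cells. *Smc4* thus had at least 5 reads in each cycling cell and in 26 of 58 and 26 of 100 other cells. *Spc25*, a kinetochore protein outside the lists that entered by the size of its difference, was higher by 6.04 in the autopod and by 5.87 in the zeugopod.

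G2/M reads were also summed over the 57 genes. The sum ranged from 579 through 15154 to 33198 CPM in cycling autopod cells and from 0 through 132 to 22855 in other cells. In the zeugopod it ranged from 1493 through 16750 to 28274 and from 0 through 182 to 32022. Only 1 of 58 other autopod cells and 2 of 100 other zeugopod cells lay above the median of the cycling cells. The ranges still overlapped: 20 of 58 and 12 of 100 other cells lay above the lowest cycling cell, and 1 autopod and 0 zeugopod cycling cells above the highest other cell. The sum was higher in cells with more markers: cells with 0, 1, 2, 3 and 4 markers had medians of 41.9, 148, 4070.9, 12240 and 19293 CPM in the autopod and 129.03, 264, 1626, 13639 and 21654 in the zeugopod. The cells with 2 markers, which the rule counts among the other cells, therefore lay between cells with fewer markers and the cycling cells.

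Cell cycle phases were also called with cyclone, which compares pairs of genes within a cell, after the pairs that held a rule marker were removed. In the autopod 12 of 18 cycling cells were called G2/M (66.7%, interval 41 to 86.7), 5 G1 and 1 S, against 2 G2/M, 2 S and 54 G1 among the other 58. In the zeugopod 19 of 23 cycling cells were called G2/M (82.6%, 61.2 to 95), 3 G1 and 1 S, against 2 G2/M, 1 S and 97 G1 among the other 100. All 13 zeugopod cells with 4 markers and 7 of the 9 such autopod cells were called G2/M. The counts were the same with all pairs kept. Because the rule itself reads transcripts that rise together with other G2/M genes, a separation in these calls follows in part from it and is no separate evidence. The number of detected genes, which moves with the groups, also enters such calls, and its part was not tested.

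Genes of DNA replication differed less. Of 62 genes of the S phase list, 13 passed as higher in the autopod, 15 in the zeugopod and 9 in both, beside 5.05%, 4.45% and 1.63% of all genes, and none as lower, with median differences of 1.5 and 1.32 on the normalized scale. The 9 were *Asf1b*, *Atad2*, *Blm*, *Gins1*, *Mcm10*, *Rfc4*, *Rrm1*, *Rrm2* and *Tyms*. *Rrm1*, the large subunit of ribonucleotide reductase, had a median of 319 CPM in cycling and 0.19 in other autopod cells and 417 and 0.26 in the zeugopod, and differed by 5.0 in autopod and 5.15 in zeugopod cells. *Tyms*, which makes thymidylate, differed by 2.82 and 2.49 in the same order. In the autopod 52 of the 62 had positive differences on both scales. Of the replicative helicase genes *Mcm2* to *Mcm7*, *Mcm5* passed in the autopod at 2.79 and 2.11 and missed on CPM alone in the zeugopod at 2.15 and 1.91. *Mcm3*, *Mcm7*, *Mcm4*, *Mcm6* and *Mcm2* did not pass, with autopod differences of 1.355, 1.54, −0.005, −0.41 and −0.43 on the normalized scale. Against other cells matched in detected genes, only 3 S phase genes were higher in both tissues, whereas 41 of the 57 G2/M genes still were.

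Summed S phase reads had medians of 8899 CPM in cycling and 6175 in other autopod cells, and 11076 and 5769 in the zeugopod. Many other cells were as high: 17 of 58 in the autopod and 15 of 100 in the zeugopod lay above the median of the cycling cells. The medians were highest in cells with 3 markers, at 10652 CPM in the autopod and 13984 in the zeugopod. Cells with 2 markers had medians of 10102 and 11890 CPM, above those of cells with 4 markers, at 7145.9 and 4815.9. The 4 markers thus picked cells rich in G2/M transcripts, and cells rich in replication transcripts were found on both sides of the rule. The other cells are those that did not meet the rule, not cells shown to be outside the cycle.

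Of 18 genes of chromatin and the cytoskeleton that are abundant in dividing cells, 7 passed as higher in the autopod, 6 in the zeugopod and 5 in both, beside the same shares of all genes: *Dek*, *H2afx*, *Smc2*, *Smc4* and *Tmpo*. *H2afx*, a histone variant whose gene lies outside the histone clusters, differed by 5.78 in autopod and by 5.70 in zeugopod cells, and *Tmpo*, which encodes proteins of the nuclear lamina, by 3.82 and 2.79 in the same order. The G1 list of cyclins, kinases and inhibitors had 1 call among 19 genes in the table, *Cdkn2d* as higher in the zeugopod, and 0 in the autopod, beside 4.45% and 5.05% of all genes. *Ccnd1* (cyclin D1), which acts early in the cycle, had differences of −0.76 (normalized) and −1.35 (CPM) in the autopod and −1.11 and −1.42 in the zeugopod. *Ccnd2* had differences of 0.00 and −1.20, and −1.10 and −1.83, so both cyclins lay below the broad shift without passing the fold minimum.

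Of 204 patterning, signalling, cartilage, connective tissue matrix and tendon genes in 7 lists, 171 were in the table. In the autopod 13 passed as higher and 8 as lower, beside 5.05% and 0.137% of all genes, and in the zeugopod 5 as higher and 0 as lower, beside 4.45% and 0%. Differences stayed under 1 on both scales for 92 of the 171 genes in the autopod (53.8%), for 74.9% of them in the zeugopod and for 77 genes in both tissues (45%). Over all 10948 genes the same shares were 66.6%, 74.3% and 56%, so these lists held a smaller share of such genes in the autopod and a similar one in the zeugopod.

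None of *Hoxd9* to *Hoxd13*, which set position along the limb, passed the fold minimum in either tissue. *Hoxd13*, the gene of the digit territory, ranged from 0 through 679 to 4728 CPM in cycling autopod cells and from 0 through 701 to 7875 in other cells, with differences of 1.26 (normalized) and 0.17 (CPM), and of 0.00 and −1.08 in run NXT0072 alone. The *Hoxd13* difference depended on the cells compared. On the normalized scale it was 2.20 without chondrogenic cells (defined below) and 2.78 against cells with none of the 4 markers. Against matched other cells it was −0.98 and −1.57. *Hoxd11* ranged from 0 through 171 to 1367 CPM in cycling and from 0 through 114.5 to 1544 in other autopod cells, with differences of 0.37 and −0.73. In the zeugopod *Hoxd11* ranged from 0 through 55.9 to 1024 CPM and from 0 through 121.1 to 1077, with differences of −0.12 and −0.64. The ranges overlapped almost fully, the sign of *Hoxd11* depended on the scale in the autopod, and in the zeugopod it depended on the run, at −1.52 and −1.88 in NXT0142 and 0.97 and 0.39 in NXT0143. *Hoxd10* had differences of −0.31 and −1.09 in the autopod and 0.91 and 0.41 in the zeugopod, and *Hoxd9* had 0.76 and 0.67 in the autopod and −0.44 and −0.66 in the zeugopod. *Hoxd12* came nearest to a call, with 5 or more reads in 12 of 18 cycling and 25 of 58 other autopod cells and differences of 2.79 and 1.80. Without chondrogenic cells *Hoxd12* was at 3.90 on the normalized scale, and against matched other cells at 2.50 and 1.81.

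Among *Hoxa* genes, *Hoxa10* was the one *Hox* gene of 14 in the table that passed, as higher in the autopod, beside 5.05% of all genes. Its median was 71.6 CPM in cycling and 11.3 in other cells, with differences of 2.91 and 2.03. In run NXT0072 alone they were 2.31 and 1.47. Against matched other cells they were 2.61 and 2.19, and relative to the median shift of widely detected genes 1.76 and 1.38. In the zeugopod *Hoxa10* differed by 2.08 and 1.51. *Hoxa13*, the distal partner of *Hoxd13*, had differences of 1.45 and 0.74 in the autopod, and *Hoxa11*, the gene of the forearm territory, 0.39 and 0.07 in the zeugopod. *Shox2*, a factor of the proximal limb, ranged from 0 through 129.1 to 2820.1 CPM in cycling zeugopod cells and from 0 through 5.88 to 3482 in other cells, with differences of 1.92 and 1.57 that did not reach the fold minimum. *Meox2*, another homeobox gene, differed by 0.49 and 0.13 there. *Wnt5a*, a ligand of distal outgrowth, had differences of 0.88 and −0.10 in the autopod and −0.10 and −0.67 in the zeugopod.

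**Figure D4:**
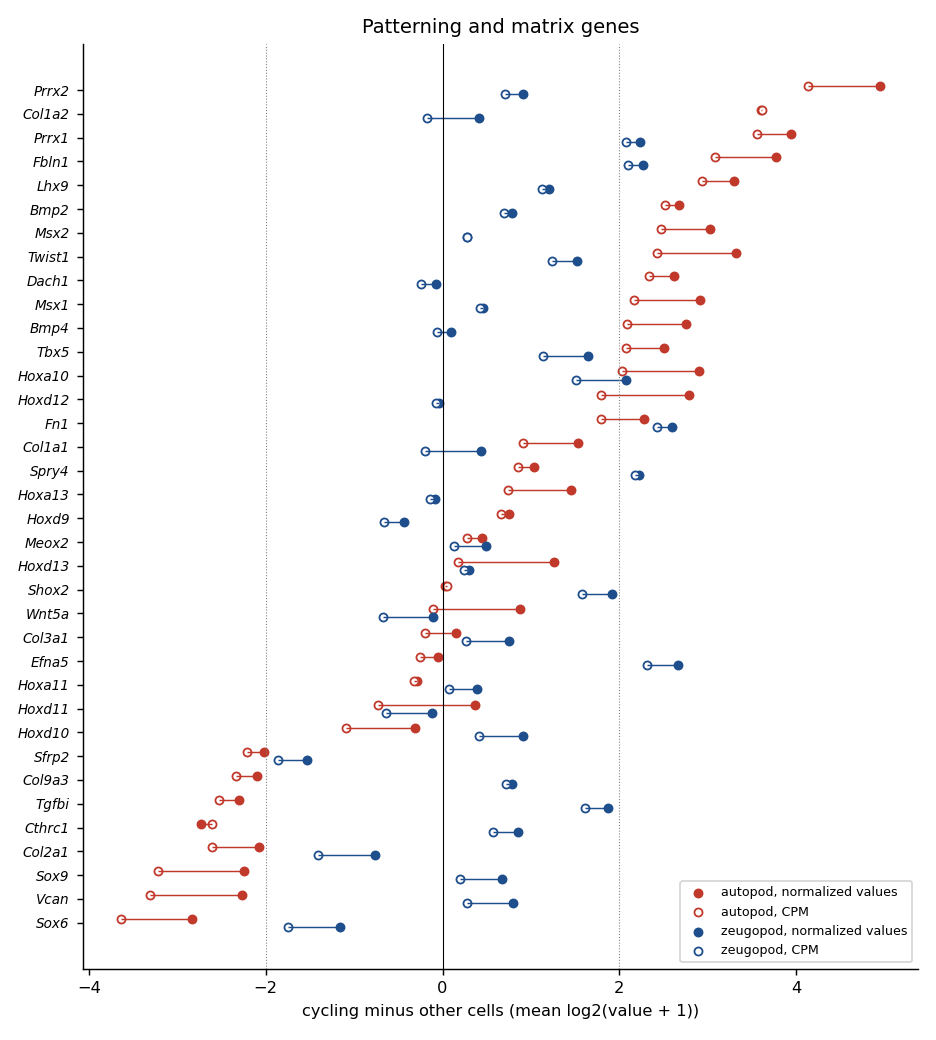
Differences between cycling and other cells for patterning and matrix genes, in mean log2(value + 1), with filled points for the authors' normalized values, open points for CPM and a line joining them; red is the autopod and blue the zeugopod. *Prrx2*, *Prrx1* and *Fbln1* lie far to the right in the autopod and *Sox6*, *Vcan* and *Sox9* far to the left. *Hoxd13*, *Hoxd11* and *Wnt5a* stay below the fold minimum on both scales.

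Several limb patterning factors were higher in cycling autopod cells. Of 51 limb patterning factors in the table, *Dach1*, *Lhx9*, *Msx1*, *Msx2*, *Prrx1*, *Prrx2*, *Tbx5* and *Twist1* passed as higher in the autopod, and *Prrx1* alone did in the zeugopod, beside 5.05% and 4.45% of all genes. *Prrx1*, a homeobox gene of limb mesenchyme, ranged from 0 through 458 to 4836 CPM in cycling autopod cells and from 0 through 3.97 to 4864.5 in other cells, with differences of 3.94 and 3.55. In the zeugopod it ranged from 0 through 404 to 3678 and from 0 through 63.7 to 6220.4, with differences of 2.24 and 2.08. *Prrx1* had 5 or more reads in 16 of 18 and 20 of 23 cycling cells, and in 31 of 58 and 66 of 100 other cells. In the zeugopod the size depended on the run, at 1.24 in NXT0142 and 3.04 in NXT0143. The zeugopod call of *Prrx1* did not hold against matched other cells, at 1.77 and 2.07. It did not hold relative to the median shift of widely detected genes either, at 1.38 and 1.47.

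Its paralog *Prrx2* was at 5 or more reads in 14 of 18 cycling and 13 of 58 other autopod cells, a difference of 4.96 and 4.13. *Msx1*, a homeobox gene of the distal mesenchyme, ranged from 0 through 449 to 3867 CPM in cycling and from 0 through 19 to 3145 in other autopod cells, with differences of 2.92 and 2.17, and in NXT0072 alone the differences were 2.00 and 1.31. *Msx2* differed by 3.03 and 2.48, *Lhx9*, a LIM homeobox gene of the distal limb, by 3.30 and 2.93, and *Twist1*, a factor of mesenchymal cells, by 3.32 and 2.42. *Dach1* differed by 2.62 and 2.34, and by 2.17 and 1.88 in NXT0072 alone, where it missed on CPM. *Tbx5*, which specifies the forelimb, differed by 2.51 and 2.08 in the autopod and 1.65 and 1.14 in the zeugopod. These genes were each read in some other cells at levels as high as in cycling cells, so the groups overlapped in range. Relative to the median shift of widely detected genes, 3 of the 51 factors stayed higher in the autopod, *Lhx9*, *Prrx1* and *Prrx2*, and 3 were lower. There *Msx1* was at 1.77 and 1.52, *Msx2* at 1.88 and 1.83, and *Dach1* at 1.47 and 1.69. *Tbx5* was at 1.36 and 1.43, and *Twist1*, at 2.18 and 1.77, missed on CPM. Against matched other cells, 7 were higher and 1 lower, and *Msx1*, at 2.28 and 1.90, missed on CPM. Without chondrogenic cells (defined below) *Msx1* was at 1.82 and *Dach1* at 1.83 on the normalized scale. The other factors named as higher stayed past the fold minimum on that scale.

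Of 44 signalling genes in the table, 2 passed as higher and 1 as lower in the autopod, beside 5.05% and 0.137% of all genes, and 2 as higher in the zeugopod, beside 4.45%, so the shares of higher genes were near those of all genes. *Bmp4*, a secreted growth factor, had 5 or more reads in 6 of 18 cycling and 3 of 58 other autopod cells and differed by 2.76 and 2.09, and *Bmp2* by 2.67 and 2.52. *Sfrp2*, a secreted modulator of Wnt signalling, was lower: its median was 0.10 CPM (0 to 227) in cycling and 9.38 (0 to 4514) in other autopod cells, with differences of −2.02 and −2.21. In NXT0072 alone *Sfrp2* was at −1.42 and −1.57, below the fold minimum, and *Bmp4*, at 2.50 and 1.82, missed on CPM. *Bmp2* still passed in that run, at 2.99 and 2.88. Against matched other cells both passed in the autopod, *Bmp2* at 2.16 and 2.16 and *Bmp4* at 2.73 and 2.10. Relative to the median shift of widely detected genes neither did, at 1.53 and 1.87, and 1.61 and 1.44. On that measure 0 of the 44 were higher and 9 lower in the autopod, beside 183 and 120 of all 10948 genes. In the zeugopod *Sfrp2* had the same sign, at −1.53 and −1.86, without passing. *Efna5*, an ephrin, passed as higher in the zeugopod at 2.67 and 2.32 and was at −0.05 and −0.26 in the autopod. *Spry4*, an inhibitor of FGF signalling, passed in the zeugopod at 2.22 and 2.17. Against matched other cells zeugopod *Efna5* was at 2.38 and 2.30, and *Spry4* at 0.63 and 0.56. Relative to the median shift of widely detected genes they were at 1.81 and 1.71, and at 1.36 and 1.57.

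Of the genes of cartilage, 2 of 3 regulators (*Sox9* and *Sox6*) and 2 of 12 matrix genes (*Col2a1* and *Col9a3*) passed as lower in cycling autopod cells, beside 0.137% of all genes. These 4 calls were 2 in run NXT0072 alone, 2 against matched other cells and 1 without chondrogenic cells. *Sox9*, the master regulator of cartilage (chr11:112782224-112787760, plus strand, GRCm38), ranged from 0.222 through 128.9 to 5423 CPM in the 18 cycling cells and from 0.29 through 2084 to 12583 in the other 58. Its mean log2(normalized value + 1) was 7.21 ± 2.99 (SD, 18 cells) and 9.46 ± 2.82 (SD, 58 cells), a difference of −2.24, or −3.22 in CPM, and in NXT0072 alone −2.34 and −3.25. Nearly every cell of both groups had *Sox9* reads, with 5 or more in 17 of 18 cycling and 55 of 58 other cells, so the groups differed in level rather than in detection. *Sox6*, which acts with *Sox9*, had 5 or more reads in 1 of 18 cycling and 36 of 58 other autopod cells, with differences of −2.84 and −3.64. *Sox5*, the third regulator, did not pass.

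*Col2a1*, the fibrillar collagen of cartilage (chr15:97975602-98004695, minus strand), had a median of 0.595 CPM (0 to 18469) in cycling and 29.7 (0 to 12520.0) in other autopod cells. The cell with the highest *Col2a1* of the autopod was a cycling cell, and the difference of −2.08 (−2.61 in CPM) was −1.22 (−1.58) in NXT0072 alone, below the fold minimum. *Col9a3*, a chain of collagen IX, had 5 or more reads in 1 of 18 cycling and 26 of 58 other cells and a difference of −2.10 and −2.34. All 12 cartilage matrix genes in the table had negative differences on both scales in the autopod, 2 of them past the fold minimum, and in the zeugopod 4 had positive and 8 negative differences with none past it. Summed over the cartilage list, the median was 75.3 CPM in cycling and 691 in other autopod cells and 256 and 881 in the zeugopod.

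In the zeugopod *Sox9* was not lower: it ranged from 0 through 373 to 4910.3 CPM in cycling cells and from 0 through 296 to 5313 in other cells, with differences of 0.67 and 0.20. Against matched other cells zeugopod *Sox9* passed as higher, at 2.65 and 2.65. *Col2a1* had a median of 15.2 CPM (0 to 2238) in cycling and 104.4 (0 to 7023) in other zeugopod cells, with differences of −0.76 and −1.41. *Sox6* had differences of −1.15 and −1.74. Whether the differences of autopod and zeugopod themselves differ was not tested.

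Chondrogenic cells, with 5 or more reads of at least 3 of *Sox9*, *Col2a1*, *Acan*, *Col9a1* and *Matn1*, made up 4 of 18 cycling autopod cells (22.2%, interval 6.41 to 47.6) and 31 of 58 other cells (53.4%, 39.9 to 66.7). Read the other way, 4 of 35 chondrogenic autopod cells were cycling (11.4%, 3.20 to 26.7) and 14 of 41 others (34.1%, 20.1 to 50.6), and in NXT0072 alone 4 of 27 and 12 of 32. In the zeugopod the shares were 7 of 38 (18.4%) and 16 of 85 (18.8%). The class uses *Sox9* and *Col2a1* themselves, so it restates their lower level and is no separate evidence of it. Without the chondrogenic cells the autopod difference of *Sox9* was −1.35, of *Sox6* −2.30, of *Col2a1* −1.06 and of *Col9a3* −1.14 on the normalized scale.

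Among 44 connective tissue matrix genes, 2 passed as higher (*Col1a2* and *Fbln1*) and 3 as lower (*Cthrc1*, *Tgfbi* and *Vcan*) in the autopod, and *Fbln1* and *Fn1* passed as higher in the zeugopod. The shares over all genes were 5.05% higher and 0.137% lower in the autopod and 4.45% higher in the zeugopod, near the share of this list among higher genes. *Vcan*, the proteoglycan of precartilage condensations, ranged from 0.23 through 35.4 to 2429 CPM in cycling autopod cells and from 0 through 1757 to 43129 in other cells, with differences of −2.27 and −3.31. Without chondrogenic cells the *Vcan* difference was 0.25 on the normalized scale, so its sign rested on them. *Cthrc1* and *Tgfbi*, both secreted matrix proteins, had 5 or more reads in 1 and 2 of 18 cycling autopod cells and in 21 and 30 of 58 other cells. Without chondrogenic cells their normalized differences were −1.01 and −1.85, below the fold minimum in size. *Sulf1*, an enzyme that trims heparan sulphate and belongs to no list, was lower by the most in CPM, with a median of 0.10 in cycling and 169 in other autopod cells and differences of −2.91 and −4.08. Without chondrogenic cells *Sulf1* was at −1.47 on the normalized scale.

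*Fbln1*, which encodes the matrix protein fibulin 1, had a median of 102.1 CPM in cycling and 3.13 in other autopod cells and 70.5 and 1.94 in the zeugopod. It passed in both tissues, with a difference of 3.78 in autopod and of 2.27 in zeugopod cells. *Fn1* (fibronectin) passed in the zeugopod at 2.60 and 2.42, and in the autopod, at 2.28 and 1.79, it missed on CPM alone. Neither zeugopod call held against matched other cells, with *Fbln1* at 1.08 and 1.21 and *Fn1* at 1.29 and 1.37. Relative to the median shift of widely detected genes they were also below the fold minimum there, at 1.42 and 1.49, and 1.75 and 1.82. *Col1a2* passed in the autopod at 3.61 and 3.62 and was at 0.41 and −0.18 in the zeugopod. Its partner chain *Col1a1* did not pass, at 1.53 and 0.91 in the autopod and 0.43 and −0.20 in the zeugopod, and *Col3a1* was at 0.15 and −0.20, and 0.75 and 0.26. None of the 3 tendon genes in the table passed in either tissue, beside 5.05% and 4.45% of all genes that passed as higher.

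The share of cycling cells was also read within cells that had 5 or more reads of a patterning gene. In the autopod it was 16 of 65 with *Hoxd13* and 2 of 11 without, 14 of 67 with *Hoxd11* and 4 of 9 without, 9 of 43 with *Hoxd10* and 9 of 33 without, and 13 of 46 with *Msx1* and 5 of 30 without. With *Hoxa13* it was 14 of 45 (31.1%, 18.2 to 46.6) and without 4 of 31 (12.9%, 3.63 to 29.8). In the zeugopod it was 17 of 73 with *Shox2* (23.3%, 14.2 to 34.6) and 6 of 50 without (12%, 4.53 to 24.3), in the same direction in both runs. It was 18 of 98 with *Hoxd11* and 5 of 25 without, 15 of 72 and 8 of 51 for *Hoxd10*, 13 of 67 and 10 of 56 for *Meox2*, 7 of 34 and 16 of 89 for *Hoxa11*, and 4 of 17 tendon cells (with 2 of *Scx*, *Tnmd* and *Tnc*) and 17.9% of the cells outside that class. The intervals of cells with and without a gene overlapped in every one of these pairs. More detected genes make 5 reads of any gene more frequent, and the part of this in the shares was not tested.

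**Figure D5:**
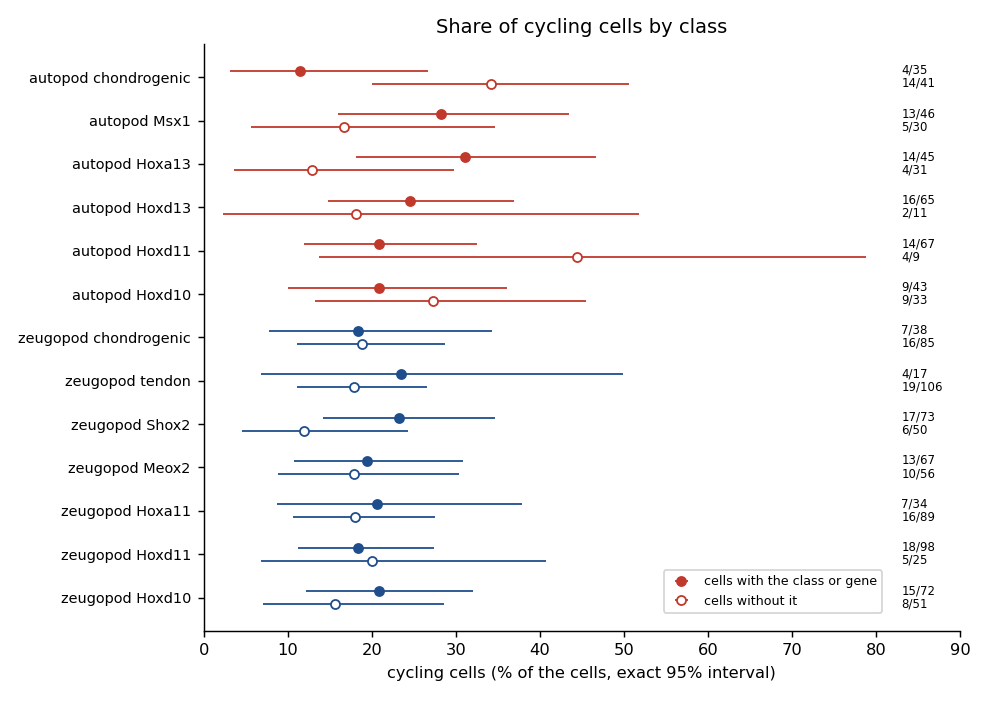
The share of cycling cells, with its exact 95% interval, among cells with (filled) and without (open) a gene at 5 or more reads, or the chondrogenic or tendon class; numbers at the right are cycling cells of all such cells. The chondrogenic class of the autopod is at 11.4% and 34.1%, and in the zeugopod the 2 values of that class are 18.4% and 18.8%.

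Of 14 stress genes in the table, *Hspa1b* passed as higher in the autopod and *Dnajb1* in the zeugopod. None of 8 housekeeping genes passed in either tissue. Over all genes 5.05% passed as higher in the autopod and 4.45% in the zeugopod, so the counts of these short lists were near those shares. Markers of muscle, epithelium, endothelium, blood, macrophages and Schwann cells had a median summed level of 0 CPM in cycling and other cells of both tissues, and no cell had 5 or more reads of 3 genes of such a list, which the blood list, with 2 genes in the count table, could not have reached. The highest sums were those of the epithelial list, at 1442 CPM in 1 cycling autopod cell and 1741 CPM in 1 cycling zeugopod cell.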

How the data were processed

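The authors mapped the reads uniquely to mm10 (GRCm38) and the ERCC spike-ins with bowtie2 in local mode, counted reads per gene with HTSstation, and deposited raw counts for 23165 genes and 92 spike-ins in 225 cells. They also deposited a normalized signal for 10948 genes in 199 cells that passed their quality filter: counts divided by spike-in size factors (scran), centred within batches, plus 1, and divided by gene length. A gene with 0 reads therefore sits at a floor set by its length. Spike-in rows, 3.053% of all reads, were not used, because their columns did not follow the column names.

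The retained cells held 187344 to 9437447 gene reads each in the autopod and 186271 to 6801278 in the zeugopod. CPM was computed from the counts. Means over cells were taken of log2(value + 1), with a pseudocount of 1 and no further filter on low values. Genes by name were the 4 rule markers, every patterning or matrix gene past the fold minimum in either tissue, a fixed set of *Hox*, patterning and matrix genes, members of other lists that passed in both tissues, and up to 10 genes per tissue and direction with the largest differences of the same sign in each run with at least 3 cycling cells. Other genes, such as *Ccnd1*, *Ccnd2*, *Mcm2* to *Mcm7*, *Sox5* and *Cdkn2d*, were named after their values were seen. The rule for cycling cells and all lists were chosen with earlier results of these data known. Thinning drew 500000 reads per cell with seed 42 and left out shallower cells. No doublet caller was run, and no retained cells had identical counts. Phases were called with cyclone (scran 1.30.0, R 4.3.3). Other steps used Python 3.11.15, pandas 2.3.3, numpy 2.4.6 and scipy 1.17.1, and calculations were tested on simulated data. Gene positions are those of GENCODE on GRCm38, and promoter sequences those of RefSeq on GRCm38.p6. The alternatives comprised other pseudocounts, scales, filters, marker rules, thinning and single runs.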

Additional observations from a re-analysis of the deposited data

Results flagged for a closer look

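Among the named genes that were lower in cycling autopod cells, 5 had a difference of the opposite sign of at least 0.5 on both scales in the zeugopod, and the difference between the tissues was not tested, because each tissue is 1 pooled sample. For *Plk2*, the autopod difference minus the zeugopod difference on the normalized scale was −4.94 (−2.49 and 2.45), and both values passed the fold minimum. *Tgfbi* had −4.17 (−2.30 and 1.87) and *Cdc42ep3* −4.04 (−3.33 and 0.71). *Cthrc1* had −3.58 (−2.73 and 0.85) and *Col9a3* −2.89 (−2.10 and 0.79). Without chondrogenic cells the normalized autopod difference of *Plk2* was −3.12, past the fold minimum. Those of *Tgfbi* (−1.85), *Cdc42ep3* (−1.65), *Col9a3* (−1.14) and *Cthrc1* (−1.01) were below it in size. In the zeugopod *Cdc42ep3* was then at −0.41, and the others stayed positive. *Plk2* had 5 or more reads in 2 of 18 cycling and 26 of 58 other autopod cells, but in 16 of 23 cycling and 39 of 100 other zeugopod cells. *Cdc42ep3*, an effector of the small GTPase Cdc42, had them in 2 of 18 and 29 of 58 autopod cells, and in 7 of 23 and 15 of 100 zeugopod cells. The zeugopod sign of *Cdc42ep3* and *Cthrc1* depended on the run, at 1.29 and 1.93 in NXT0142 and −0.21 and −0.14 in NXT0143. Among all 15 genes lower in the autopod, the gene model RP23-370G17.3, which the naming rule did not include, also met this, at −2.38 and 0.90.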

How the results depend on the processing

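No paired analysis was possible because the labels give no embryo or replicate number that pairs cells and no test was made. Over up to 22 settings, 3465 differences of named genes were recomputed. Of the settings, 2 were chosen after seeing the data (differences relative to the median of widely detected genes, and matched other cells). Of the differences, 3429 moved by less than the SD over cells and 35 by more. This SD often exceeded the fold minimum, so a gene could fall below that minimum and still count as moved by less. Zeugopod *Spry4*, for example, was at 2.22 with an SD of 3.11 in other cells, and at 0.63 against matched cells. The 1 reversed called value was *Vcan* in the autopod, at 0.25 without chondrogenic cells. Of 45 values of cycling shares within cells grouped by a gene or class, 42 stayed within the interval of the value reported, and the causes of the changes below were not tested.

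Counts over all 10948 genes are given as percent of them. Genes higher in the autopod (5.05%) were 9.47% on the normalized scale alone, 12.4% and 0.886% with pseudocounts of 0.1 and 10, 2.98% with at least 2 markers, 14.3% with all 4, 8.16% without chondrogenic cells, 20.2% and 1.29% at fold minima of 1 and 3, and 1.67% relative to the median. Genes lower there (0.137%) were 0.356% in CPM alone, 0.347% and 0.0183% with those pseudocounts, 0.466% after thinning, 0.475% with the rule applied again to thinned cells, 0.265% with at least 2 markers, 0.438% against cells with none, 0.42% in cells of at least 2000000 reads, 1.11% and 0.00913% at those minima, 1.1% relative to the median and 0.685% against matched cells. Genes higher in the zeugopod (4.45%) were 9.8% and 0.85% with those pseudocounts, 2.22% with at least 2 markers, 7.1% with all 4, 18.7% and 1.32% at those minima, 7.89% in run NXT0143, 1.72% relative to the median and 2.59% against matched cells. Genes lower there (0%) were 0.00913% in CPM alone, 0.0183% with a pseudocount of 0.1, 0.0183% after thinning, 0.0639% with the rule applied again, 0.0183% with all 4 markers, 0.00913% with markers at a CPM of 10, 0.539% at a fold minimum of 1, 0.128% in NXT0142, 0.0639% in NXT0143, 0.192% relative to the median and 0.658% against matched cells. Genes higher in both tissues (1.63%) were 2.87% on the normalized scale alone, 4.06% and 0.402% with those pseudocounts, 0.95% with only widely detected genes kept, 1.005% with at least 2 markers, 3.11% with all 4, 8.13% and 0.594% at those minima, 0.713% relative to the median and 0.959% against matched cells. Genes lower in both (0%) were 0.00913% with the rule applied again, 0.0731% at a fold minimum of 1, 0.0457% relative to the median and 0.00913% against matched cells. The 44 G2/M genes were 24 with a pseudocount of 10 and 6 among widely detected genes.

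The 4 cartilage genes lower in the autopod (*Sox9*, *Sox6*, *Col2a1*, *Col9a3*) were 1 with a pseudocount of 10, 1 with markers at 2 reads, 2 at a CPM of 10, 1 without chondrogenic cells, 0 at a fold minimum of 3, 2 in NXT0072 and 2 against matched cells. The cycling share was 40.8% in the autopod and 26.8% in the zeugopod with at least 2 markers, and 11.8% and 10.6% with all 4. Low levels limit what the rule can see of *Ccnb1*, whose median among cycling zeugopod cells was 2.35 CPM.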
